A study of Mus musculus with 4 samples.

Results

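The vascular endothelial growth factor (VEGF) family in mouse podocytes was examined through its 10 mouse genes, taken by gene symbol from a table of 29286 gene rows. They comprise 5 ligands (Vegfa, Vegfb, Vegfc, Figf and Pgf), 3 receptor tyrosine kinases (Flt1, Kdr and Flt4) and 2 neuropilins (Nrp1 and Nrp2). Each symbol matched exactly 1 row. The rule that selects them is by gene symbol and uses no measured value, although the family was proposed with earlier results of these data known.

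RNA-Seq had been performed on a conditionally immortalised mouse podocyte line after 12 days of differentiation. Cells were transfected by lipofection with 50 nM of a miR-93 mimic or of a nontargeting (NT) mimic, with RNA taken 48 h later. Each of the 2 groups had 2 libraries, and transfection and low-glucose medium were common to both. The comparison addresses which podocyte transcripts respond to more miR-93. The cells are a cultured line without endothelium, blood flow or basement membrane, so the crosstalk in which podocyte VEGF normally acts is absent.

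The deposited table holds 1 FPKM value (a fragment count scaled by transcript length and by the size of the library) per gene and group, pooled over the 2 libraries. No value per library was given. The depth of each library and the spread between replicates are therefore unknown, no error can be attached to any value below, and no difference was tested. In place of an error, each member was set beside all other named genes with a usable value and a mean FPKM within 2-fold of its own. Genes that the authors' programme could not test are not among them, which at low FPKM leaves out those with too few reads. The central 95% of their log2 ratios is given as a description of how far such genes of that abundance moved. Ratios are the miR-93 mimic over the NT mimic, on the log2 scale after adding 0.1 to each FPKM. "Past the fold" means a log2 ratio of 0.5 or more in either direction with at least 1 FPKM on average over both groups, the floor.

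The table names its conditions only q1 and q2. The kinase gene Rps6ka4 (Msk2) stood at 9.68 FPKM in q1 and 14.7 FPKM in q2. A panel of the study shows this pair by group name and so identifies q1 as the cells given the miR-93 mimic. Every direction below rests on that assignment. Mcm7, whose introns harbour the miR-93 precursor, was at 5.61 FPKM with the miR-93 mimic and 6.41 FPKM with the NT mimic, a log2 ratio of -0.19, and a transfected mimic would not be counted there.

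VEGF-A is made by podocytes and acts across the glomerular basement membrane on endothelial cells, mainly through the receptor Kdr (VEGFR2). Flt1 (VEGFR1) binds VEGF-A, VEGF-B and placental growth factor and also occurs as a soluble form that sequesters ligand. Flt4 (VEGFR3) is the receptor of VEGF-C and VEGF-D in lymphatic endothelium. The neuropilins are co-receptors without a kinase domain that bind both VEGFs and class 3 semaphorins, and in podocytes semaphorin 3A signalling through Nrp1 is known to affect foot processes. miR-93 belongs to the miR-17 family and directs the silencing complex chiefly through its seed, the bases 2 to 8 of the mature strand, which pairs with sites in the 3′ untranslated region (3′ UTR) of a transcript.

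The mature sequences that share the miR-93 seed are shown because a seed match cannot distinguish them. Of the mouse mature miRNAs of RefSeq (GRCm38.p6), 7 carried the same bases 2 to 8, which are in capitals. The first 6, from clusters on chromosomes 5, 14 and X, belong to the miR-17 family, and miR-6383 shares the seed only.
miR-93-5p: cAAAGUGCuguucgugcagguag
miR-106b-5p: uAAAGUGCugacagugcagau
miR-17-5p: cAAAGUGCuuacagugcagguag
miR-20a-5p: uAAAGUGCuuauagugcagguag
miR-20b-5p: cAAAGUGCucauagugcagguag
miR-106a-5p: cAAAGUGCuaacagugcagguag
miR-6383: uAAAGUGCugugucacggaca

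The mature miR-93-5p lies at chr5:138165574-138165596 on the minus strand of GRCm38.p6, and miR-106b-5p lies beside it at chr5:138165787-138165807.

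Matches to the seed lay in 3 of the 10 members, and their sites are printed so that they can be read beside the values. Matches were searched on the transcript strand of every annotated 3′ UTR of at least 30 bases (GENCODE M21, GRCm38) as GCACTTTA (8mer), GCACTTT (7mer-m8, not followed by A), CACTTTA (7mer-A1) and CACTTT (6mer), each match being assigned to the longest class it met. The 30-base windows below carry the match in capitals.
Vegfa, 7mer-m8: agaggagactcttcgaggaGCACTTTgggt
Nrp2, proximal 7mer-m8: aacacgttgcctcgattttGCACTTTtttt
Nrp2, distal 7mer-m8: agaaccatggcgtcacggaGCACTTTttgt
Nrp2, 6mer of the alternative last exon: tacaagtcctgcatccacttCACTTTggct
Flt1, 8mer: tcagcccatatttattaaGCACTTTAtgct
Flt1, 6mer of the transcript that ends early: aaataaatcaagagcaattaCACTTTgaac

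The Vegfa match was at chr17:46018690-46018696 (minus strand), bases 162 to 168 of a 3′ UTR of 1865 bases, and an annotated 3′ UTR of 315 bases held it as well. In Nrp2 the matches depended on which last exon a transcript used. Transcripts ending at the upstream last exon had a 3′ UTR of 3325 or 992 bases. The longer carried both 7mer-m8 matches, at bases 71 to 77 (chr1:62796060-62796066) and 2156 to 2162 (chr1:62798145-62798151), whereas the shorter carried only the proximal match. The 4 transcripts ending at the downstream last exon shared a 3′ UTR of 3058 bases with a lone 6mer at bases 2456 to 2461 (chr1:62818093-62818098). Flt1 was split in a similar manner. Its full-length transcript had an 8mer at bases 1132 to 1139 of 2616 (chr5:147563081-147563088, minus strand), while the transcript that ends early, as soluble Flt1 transcripts do, had a 6mer at bases 1134 to 1139 of 3971 (chr5:147637991-147637996). FPKM was summed over the isoforms of a gene, so these alternatives cannot be told apart in the values below.

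**Figure D1:**
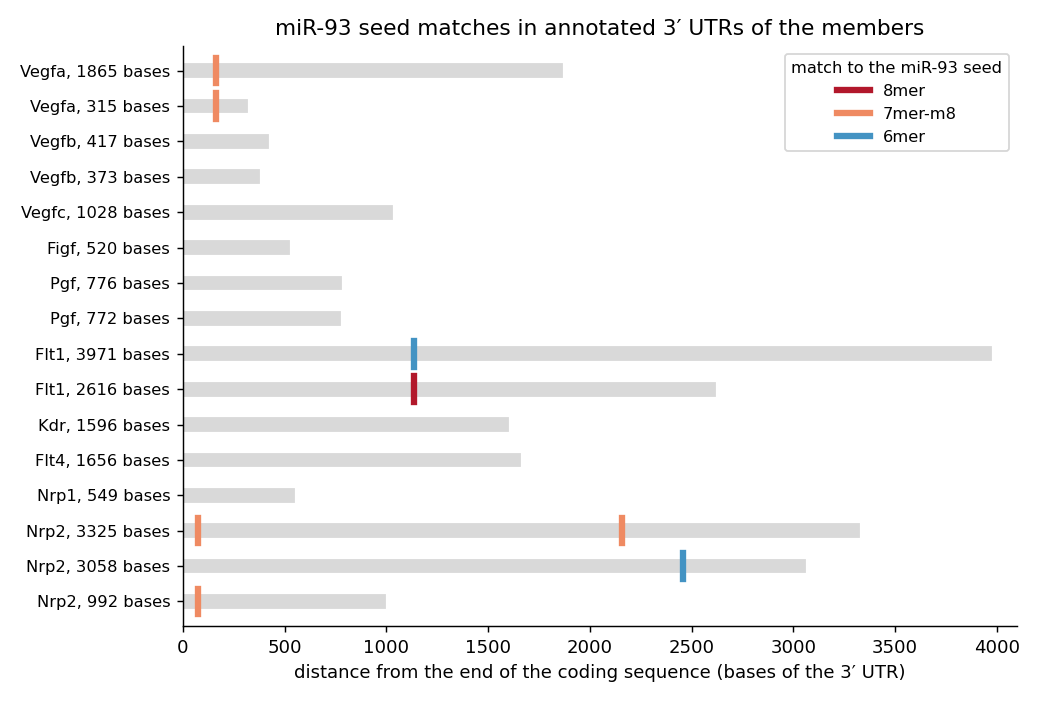
Annotated 3′ UTRs of the 10 members (GENCODE M21), drawn to scale from the end of the coding sequence in bases, with coloured ticks at matches to the miR-93 seed; 3′ UTRs with the same length and matches are drawn once. Vegfa, Flt1 and Nrp2 hold matches, Nrp2 and Flt1 differ between their alternative 3′ ends, and the other 7 members hold none.

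None of Vegfb, Vegfc, Figf, Pgf, Kdr, Flt4 and Nrp1 had a match of any class in an annotated 3′ UTR. Among 9969 genes over the floor with a 3′ UTR, the best match in the longest one was an 8mer in 4.61%, a 7mer-m8 in 10.5%, a 7mer-A1 in 7.40% and a 6mer in 19.7%, and 57.9% had none. A match describes the letters of the reference, not a bound site.

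The family was dominated by ligands and co-receptors, with very little receptor mRNA. With the NT mimic, the neuropilins summed to 128 FPKM, the ligands to 53.4 FPKM and the 3 receptors to 2.18 FPKM. With the miR-93 mimic the sums were 107, 54.7 and 1.61 FPKM. FPKM is per transcript length, so these levels can be set side by side between genes. By mean FPKM over both groups the order was Nrp1, Nrp2, Vegfa, Vegfb, Vegfc, Figf, Flt4, Flt1, Pgf and Kdr. Nrp1 exceeded 91.7% of the 12978 named genes with a usable value, Nrp2 89.7%, Vegfa 80.4% and Vegfb 74.1%. Vegfc exceeded 29.5%, Figf 26.1%, Flt4 19.5%, Flt1 11.0%, Pgf 2.70% and Kdr 0.670%. The ranking leaves out rows marked as having too few reads to test, which were 12261 of all 29286 rows. Kdr was itself such a row, and the ranks of the low members hold only within the ranked set. Nrp2 stood just above Nrp1 with the NT mimic and below it with the miR-93 mimic, and without a spread over libraries no neighbours in this order can be said to differ. Fewer cells of a type and less RNA per cell cannot be told apart in these values.

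**Figure D2:**
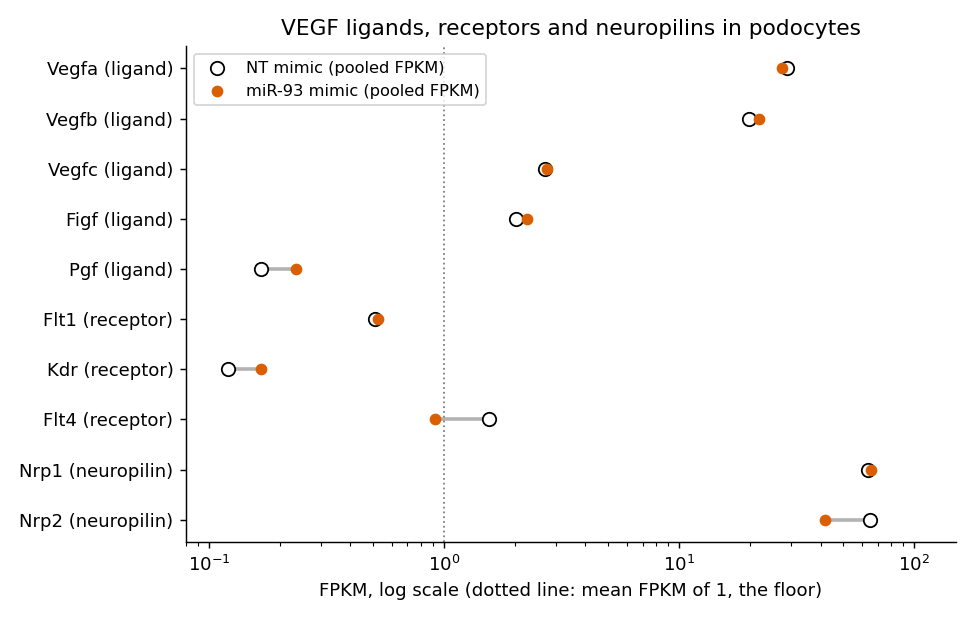
Pooled FPKM (log axis) of each member with the NT mimic (open circles) and the miR-93 mimic (filled circles), 1 value per group without an error; the dotted line marks an FPKM of 1. The neuropilins, Vegfa and Vegfb sit near 20 FPKM or above and the receptors near or below 1 FPKM, and the pairs of Nrp2 and Flt4 are the only ones over the floor that stand clearly apart.

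Of the 10 members, 7 were over the floor, and 2 of these 7 were past the fold towards lower values with the miR-93 mimic (Nrp2 and Flt4). Flt4 met the floor only through its NT mimic value, and the count was 1 (Nrp2) at a floor of 5 FPKM or with a pseudocount of 1. None was past the fold towards higher values. Over 10717 named genes above the floor, 3.75% were lower and 1.84% were higher by the same measure. With ratios centred on their median of -0.09, the 402 lower and 197 higher genes became 256 and 271, and Nrp2 and Flt4 stayed past the fold. The median log2 ratio of the 7 members was 0.02. Pgf, Flt1 and Kdr were below the floor and had ratios within the fold.

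Nrp2 (chromosome 1, 62749556 to 62865266, mm9), the co-receptor of VEGF-C and of semaphorin 3F, stood at 41.6 FPKM with the miR-93 mimic and 64.7 FPKM with the NT mimic. It was thus 1.56-fold lower with miR-93, at a log2 ratio of -0.64. The 2069 other genes within 2-fold of its abundance had a central 95% from -0.55 to 0.23, and 1.55% of them had a lower ratio than Nrp2. It remained past the fold with no pseudocount, with a pseudocount of 1 and after centring.

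Nrp1 (chromosome 8, 130882972 to 131029376, mm9), the co-receptor that presents VEGF-A to Kdr and binds semaphorin 3A, differed little. It stood at 65.8 FPKM with the miR-93 mimic and 63.5 FPKM with the NT mimic, a log2 ratio of 0.05. Genes of its abundance spanned -0.56 to 0.22. The neuropilins, which had nearly equal levels with the NT mimic (0.981 Nrp1 FPKM per Nrp2 FPKM), thus stood at 1.58 to 1 with the miR-93 mimic. This ratio within a group does not depend on the scaling between groups. It was higher with the miR-93 mimic by 0.69 on the log2 scale, most of it from Nrp2. Nrp2 had the 7mer-m8 matches printed above and Nrp1 had no match in its 3′ UTR of 549 bases.

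Flt4 (chromosome 11, 49423180 to 49466241, mm9), the VEGF-C and VEGF-D receptor, stood at 0.920 FPKM with the miR-93 mimic and 1.55 FPKM with the NT mimic. It was 1.69-fold lower, at a log2 ratio of -0.70, and 2.16% of the 1991 genes of like abundance had a lower ratio. Their central 95% was much wider than that of Nrp2, from -0.67 to 1.73, and Flt4 lay just beyond its lower edge. With a pseudocount of 1 its log2 ratio was -0.41, no longer past the fold. Its 3′ UTR of 1656 bases had no match. Of the lymphatic marker list, Prox1 was at background, at 0.0159 and 0.0177 FPKM (miR-93 and NT mimic), and Lyve1 was listed at 0 in both groups. The other gene of that list, Pdpn, which podocytes also express, was at 13.3 and 12.4 FPKM.

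Flt1 (chromosome 5, 148373771 to 148537564, mm9) was at 0.525 FPKM with the miR-93 mimic and 0.509 FPKM with the NT mimic, a log2 ratio of 0.04. This total sums the full-length transcript with the 8mer and the transcript that ends early, so it cannot show whether the former differed. The level was below the floor, where genes of like abundance spanned -0.72 to 2.42. Kdr (chromosome 5, 76329136 to 76374463, mm9), the principal signalling receptor of VEGF-A, was lower still, at 0.167 and 0.121 FPKM, and was the only member that the authors' programme had marked as having too few reads to test. Its log2 ratio of 0.28 lay inside a span of -0.72 to 2.26 with a median of 0.30. That span comes only from genes with enough reads to test, so it does not describe genes like Kdr. With the NT mimic there were 238 Vegfa FPKM per Kdr FPKM.

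**Figure D3:**
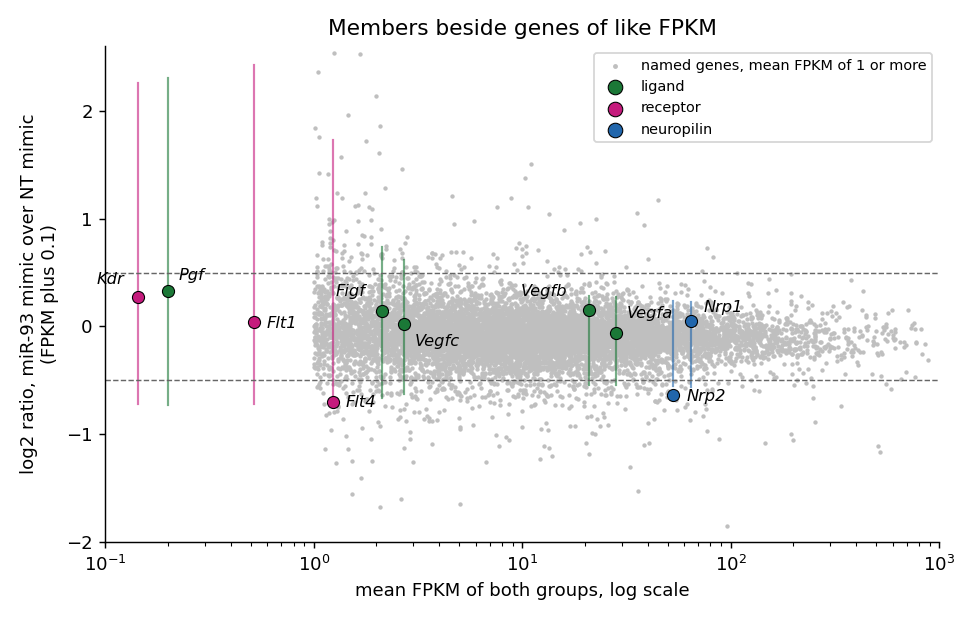
Log2 ratio of the miR-93 mimic over the NT mimic (FPKM plus 0.1) against mean FPKM (log axis), with named genes over the floor in grey and the members coloured by role; vertical lines show the central 95% of genes within 2-fold of each member's FPKM and dashed lines a log2 ratio of 0.5 either way. Nrp2 at -0.64 and Flt4 at -0.70 lie below their lines and the other 8 members lie on theirs. Beyond the axes, 65 grey genes are not drawn.

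Among the ligands, Vegfa (chromosome 17, 46153941 to 46169326, mm9) was the most abundant. It was at 27.5 FPKM with the miR-93 mimic and 28.7 FPKM with the NT mimic. The log2 ratio of -0.06 lay near the median of genes of like abundance (-0.10, central 95% from -0.55 to 0.27) and turned to 0.03 after centring, so no direction can be given. Vegfa and Nrp2 both had a 7mer-m8 as their best match, and 6.71% of the 1043 genes of that class were past the fold towards lower values, against 2.32% of the 5768 genes without a match and 23.0% of the 460 genes with an 8mer. Within the class, 67.7% of the other genes had a lower ratio than Vegfa, whereas 3.45% had a lower ratio than Nrp2. Of the genes without a match, 0.728% had a lower ratio than Flt4. These classes hold genes of any abundance, and ratios spread more widely at the low FPKM of Flt4. Among genes of like abundance to Flt4, with a match or not, 2.16% had a lower ratio.

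**Figure D4:**
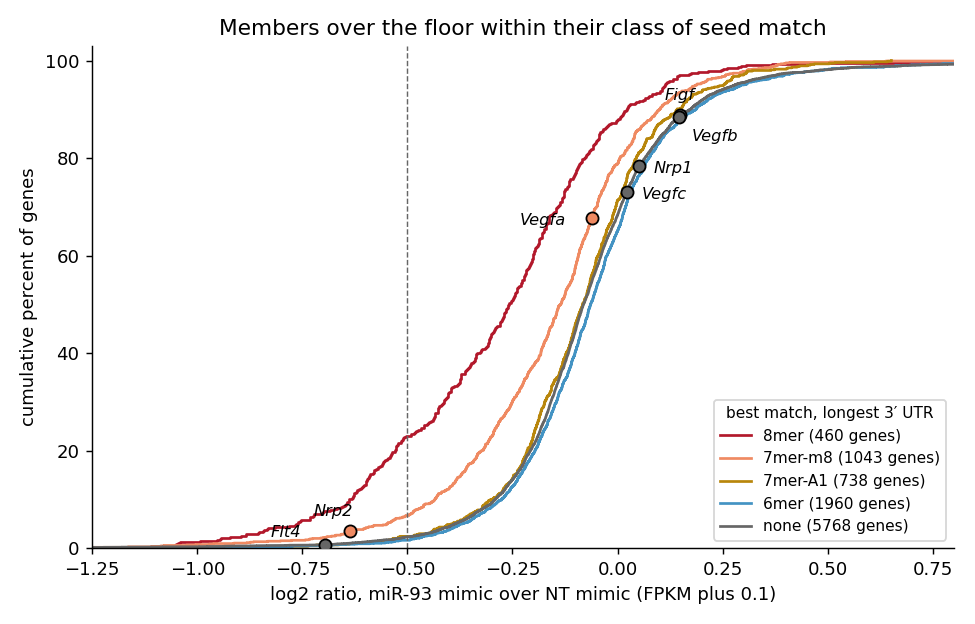
Cumulative percent of genes over the floor against the log2 ratio of the miR-93 mimic over the NT mimic (FPKM plus 0.1), by the best seed match in the longest 3′ UTR, with the 7 members over the floor marked on the curve of their class and a dashed line at -0.5. Vegfa lies above the middle of the 7mer-m8 curve and Nrp2 near its foot, and Flt4 lies at the foot of the curve of genes without a match. The curves hold genes of any abundance over the floor, and Flt4 is near the floor.

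Vegfb (chromosome 19, 7056961 to 7062141, mm9), a ligand of Flt1 linked to fatty acid uptake, was at 22.0 FPKM with the miR-93 mimic and 19.8 FPKM with the NT mimic. Its log2 ratio of 0.15 was higher than that of 92.5% of 3791 genes of like abundance but stayed inside their central 95%, from -0.54 to 0.28. Vegfa made up 53.8% of the summed ligand FPKM with the NT mimic and 50.3% with the miR-93 mimic, and Vegfb 37.1% and 40.2%.

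The lymphatic ligands were less abundant, Vegfa standing at 10.7 times Vegfc and 14.2 times Figf with the NT mimic. Vegfc (chromosome 8, 55162885 to 55271808, mm9) was at 2.73 FPKM with the miR-93 mimic and 2.69 FPKM with the NT mimic, a log2 ratio of 0.02. Figf (chromosome X, 160811479 to 160840579, mm9), which encodes VEGF-D, was at 2.25 and 2.02 FPKM, a log2 ratio of 0.15. Pgf (chromosome 12, 86507590 to 86518235, mm9), which encodes placental growth factor, was at 0.234 and 0.166 FPKM. Its log2 ratio of 0.33 lay well inside the span of genes of like abundance, from -0.72 to 2.30 with a median of 0.22. No ligand was past the fold.

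The genes that act around the family were followed through 8 lists with 122 genes, of which 98 were over the floor. In all, 2 of the 98 were past the fold towards lower values (2.04%, near the 3.75% of all genes) and none towards higher values. The median log2 ratio of the 98 was -0.06, against -0.09 over all genes. The 2 genes were Hif1an and Ccbe1. Among the pathway genes, seed matches were read out by gene only for Hif1an, Ccbe1, Hif1a, Furin, Plxna1, Adamts1 and Itgav, all with log2 ratios below 0. The other pathway genes over the floor with a 3′ UTR were searched only as part of the class shares of all genes. Their matches were not read out by gene, so the matches given below are not compared with theirs. The best match of Furin was a 7mer-m8, and that of Adamts1 and Itgav a 6mer. Any relation of these matches to the ratios was not tested.

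**Figure D5:**
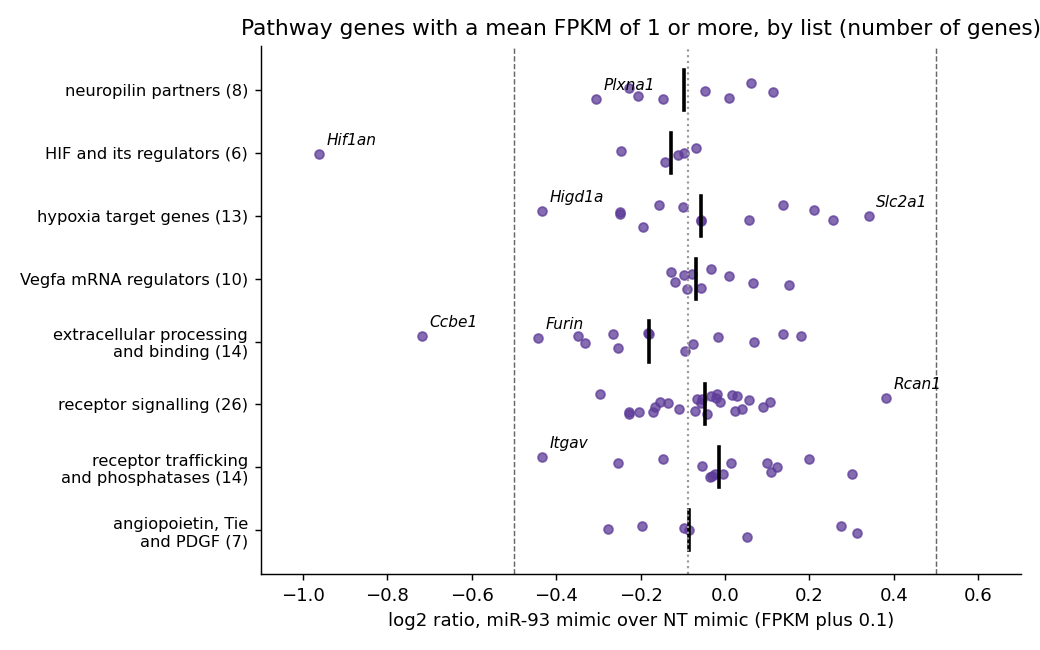
Log2 ratio of the miR-93 mimic over the NT mimic (FPKM plus 0.1) for the 98 pathway genes over the floor, by list with the number of genes; the black bar is the median of a list, the dotted line the median of all genes and the dashed lines a log2 ratio of 0.5 either way. Hif1an and Ccbe1 are the only genes past a dashed line.

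Among the regulators of the hypoxia-inducible factor (HIF), which drives Vegfa transcription, 1 of 6 genes over the floor was past the fold. It was lower, as were 3.75% of all genes, and 1 gene does not describe the list. Hif1an encodes FIH, the asparaginyl hydroxylase that restrains HIF activity. Hif1an stood at 9.04 FPKM with the miR-93 mimic and 17.7 FPKM with the NT mimic, 1.96-fold lower at a log2 ratio of -0.96. Its longest 3′ UTR held a 7mer-m8, a class in which 6.71% of genes were past the fold towards lower values. Hif1a, Arnt, Vhl, Egln1 and Egln2 were within the fold, and the other HIF genes of the list (Epas1, Hif3a, Arnt2 and Egln3) were under the floor or without a usable value. Hif1a, the most abundant of the list, was at 54.0 and 57.8 FPKM, also with a 7mer-m8, and Egln1, the main HIF prolyl hydroxylase, was at 22.4 and 24.7 FPKM. None of 13 hypoxia target genes over the floor was past the fold, and their log2 ratios ran from -0.43 (Higd1a) to 0.34 (Slc2a1, the glucose transporter). Ndrg1, the most abundant by the mean of both groups, was at 175 and 159 FPKM. Car9, a sensitive HIF target, was listed at 0 in both groups. The 10 genes that regulate Vegfa mRNA (stability and splicing factors and Sp1) had log2 ratios from -0.13 to 0.15, with Hnrnpa2b1 the most abundant at 138 and 147 FPKM.

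Of 14 genes over the floor that process or bind VEGFs outside the cell, 1 was past the fold towards lower values, where all genes gave 3.75%. Ccbe1, which promotes the cleavage of VEGF-C into its active form, stood at 8.68 FPKM with the miR-93 mimic and 14.3 FPKM with the NT mimic, a log2 ratio of -0.72. Its longest 3′ UTR held a 7mer-A1 and a 6mer, and 2.44% of the genes with a 7mer-A1 as best match were past the fold towards lower values, near the 2.32% of genes without a match. The protease that Ccbe1 assists, Adamts3, was listed at 0 in both groups. Furin, a convertase that cleaves the VEGF-C and VEGF-D precursors, was at 27.0 and 36.7 FPKM, a log2 ratio of -0.44 that fell short of the fold. Sparc, which binds VEGF-A, was the most abundant at 1557 and 1486 FPKM. Thbs1 was marked by the authors' programme as having too many reads to quantify and its listed 0 was not used.

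The neuropilin partners (class 3 semaphorins and plexins) had 8 of 12 genes over the floor and none past the fold. Sema3a, the ligand of Nrp1 and the most abundant of the list by the mean of both groups, was at 99.8 FPKM with the miR-93 mimic and 110.4 FPKM with the NT mimic. Sema3c was at 101 and 105 FPKM, and Sema3f, the ligand of Nrp2, was at 76.3 and 75.9 FPKM. Plxna1, which signals with either neuropilin, had the lowest ratio, -0.30, at 78.0 and 96.4 FPKM, and had an 8mer.

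Downstream of the receptors, none of 26 signalling genes over the floor was past the fold. Their log2 ratios ran from -0.30 for Prkca, a protein kinase C, to 0.38 for Rcan1, a calcineurin inhibitor induced by VEGF in endothelial cells. Cdc42 was the most abundant at 173 and 166 FPKM. Of 14 genes of receptor trafficking and dephosphorylation none was past the fold, from -0.43 for the integrin Itgav to 0.30 for the myosin Myo6. Dab2, an endocytic adaptor, was the most abundant at 281 and 285.5 FPKM. The angiopoietin, Tie and PDGF genes, further growth factors between podocytes, mesangium and endothelium, had 7 of 11 genes over the floor and none past the fold. Pdgfb was the most abundant at 72.0 and 82.5 FPKM, and the angiopoietin receptor Tek was at 0.0143 and 0.0115 FPKM.

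Endothelial marker genes were read beside the low levels of Kdr and Flt1. Of 14 endothelial genes, 2 were over the floor, Ehd3 at 9.16 and 8.88 FPKM and Egfl7. The defining junction genes Pecam1 and Cdh5 were at 0.0488 and 0.0257 FPKM with the miR-93 mimic and at 0.0596 and 0.0403 FPKM with the NT mimic, and Emcn and Cldn5 were listed at 0 in both groups. The list summed to 12.5 and 11.9 FPKM. Of 15 podocyte genes, 10 were over the floor, led by Actn4 at 219 and 218 FPKM and Synpo at 158 in both. The defining slit diaphragm gene Nphs1 was near 0, at 0.164 and 0.0387 FPKM, and Tcf21 was listed at 0 in both. Some genes from the lists of other cell types were also over the floor. They were 3 of 9 tubule, 3 of 6 mesangial, 3 of 6 macrophage and 1 of 6 fibroblast genes, so these lists assign no cell type. Aqp1 of the tubule list was at 385 and 340 FPKM, whereas Slc34a1 was at 0.00624 and 0 FPKM, Cdh1 at 0.0447 and 0.0383 FPKM and Umod listed at 0. Acta2 of the mesangial list was at 1260 and 1041 FPKM, whereas Itga8 was at 0.0149 and 0.0109 FPKM. Pdpn of the lymphatic list, a gene that podocytes also express, was at 13.3 and 12.4 FPKM. Macrophage genes were led by Cd14 at 6.85 and 7.74 FPKM, with Ptprc at 0.0332 and 0.0140 FPKM and Emr1 listed at 0. Fibroblast genes were led by Dcn at 8.16 and 9.26 FPKM, with Pdgfra at 0.0315 and 0.0127 FPKM. Of 23 marker genes over the floor, 2 were past the fold towards higher and 1 towards lower values, where all genes gave 1.84% and 3.75%. Wt1 of the podocyte list was at 2.06 and 1.42 FPKM, Des of the mesangial list at 1.78 and 1.02 FPKM, and the endocytic receptor Lrp2 of the tubule list at 31.7 and 47.5 FPKM. The tubule list summed to 555 and 519 FPKM, nearly all from Aqp1, Cdh16 (138 and 131 FPKM) and Lrp2. The mesangial list summed to 1282 and 1061 FPKM, nearly all from Acta2, so neither sum describes its whole list. The part of these differences in the ratios of Nrp2 and Flt4 was not tested.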

How the data were processed

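RNA-Seq libraries were compared between the miR-93 mimic (2 libraries) and the NT mimic (2 libraries), grouped by sample title. Per the study's methods and the submitters' processing notes, reads were aligned to mouse build mm9 with TopHat2 2.0.4 and quantified with Cufflinks and Cuffdiff2 (fuller version numbers not given in the sources used here). Each FPKM is the value that the authors deposited, pooled per group. A single table of the 5 deposited was used. Columns and the 4 further tables that hold the authors' own fold changes, test statistics and p-values were not used, so no test was possible and library depth is unknown.

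Log2 ratios of FPKM plus 0.1 were computed with Python 3.11.15 and pandas 2.3.3. The background took named single-gene rows with a usable status, 1 row per symbol (the most abundant). A floor of 1 FPKM and a fold of 0.5 on the log2 scale were applied. The code for the calls and the site search was checked on simulated data with known answers, which does not measure how reliable a call is in these data. For 3′ UTRs, 93.0% of genes over the floor matched GENCODE M21 by symbol (Figf as Vegfd). Coordinates of mm9 and GRCm38 were kept apart. No other row of the table overlapped the locus of a member. The kit is taken not to record strand.

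The members and lists were chosen with earlier results of these data known. All members were named, and from each list the genes past the fold (at most 4), the most abundant gene and, for markers, the genes at 0 in both groups. Other genes of the lists were named for their role after their values had been seen. Alternatives were the pseudocount, the floor, the fold, centring and the choice of 3′ UTR.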

Additional observations from a re-analysis of the deposited data

How the results depend on the processing

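Across no pseudocount, a pseudocount of 1 and centring, 29 of 30 member ratios stayed on their side of the fold. Flt4 did not (-0.41 with a pseudocount of 1), and the sign of Vegfa turned after centring (0.03). The 2 lower members became 1 with a pseudocount of 1 (Nrp2), 1 at a floor of 5 FPKM (Nrp2) and 0 at a log2 ratio of 1, where the 2 lower pathway genes also became 0. Of all genes, 48 were lower and 63 higher at that fold. At a floor of 5 FPKM 259 were lower and 54 higher. A pseudocount of 1 gave 273 lower and 123 higher, and centring 256 lower and 271 higher. Without a floor 526 were lower and 715 higher, turning the balance round, with 1 pathway gene among the higher (Ptpn6, 0.879 and 0.399 FPKM). The causes were not tested. Counting any annotated 3′ UTR, or the shortest, 3 members had a match of 7 or 8 bases in place of 2, Flt1 being added. Leaving out each replicate was not run because the values are pooled. No paired analysis was possible because no value per library was given. Library depth is unknown, and the spread of ratios at the low FPKM of Pgf, Flt1, Kdr and Flt4 was wide.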
